A study of Mus musculus with 4 samples.

Results

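RNA was pulled down from mouse testis with an antibody to LARP7 and counted over 50600 gene models. As a share of the library total, 8 long models of named genes stood at least 4-fold above the IgG background. These were Med23, Cog6, Dph5, Fbxo41, Slco1a6, Gjc3, Olfr575 and Tirap. They were chosen by 3 conditions. The model was longer than 400 nt, its expected counts (estimated read counts that need not be whole) summed to at least 100 over 4 libraries, and its CPM (its share of the library total, times 1000000) in each LARP7 library was at least 4 times the higher IgG value. Models named only as predicted genes, Riken clones, microRNAs, mitochondrial, histone or ribosomal protein genes, Snhg genes and Gas5 were left out. Of 6210 models that met every condition except the fold, 8 met the fold as well, which is 0.129%. With no symbol left out it was 20 of 7085 (0.282%). The LARP7 and IgG values thus chose these genes, and they are given below as a description, with no test.

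The libraries came from testes of C57BL/6 mice 8 weeks old and fell into 2 groups of 2, one immunoprecipitated with the LARP7 antibody and the other with IgG. The assay, RNA immunoprecipitation, recovers the RNAs held by a protein along with the protein itself, and IgG libraries record RNA that comes down without it. Inserts of 15 to 300 nt were selected, so each count of a long model came from a short RNA or a fragment. Whether replicates came from separate animals is not stated. LARP7, of the La-related family, is known for holding the 3' end of 7SK, the RNA that keeps the elongation factor P-TEFb inactive, and to bind the spliceosomal U6 RNA. Both are short RNAs made by RNA polymerase III, whereas the 8 genes encode proteins. Copies of short RNAs can lie in introns of longer genes, so the positions of annotated small RNAs were compared with the 8 genes.

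Library totals were 4411271 to 6994514 expected counts. Scaling moved every value: the median log2 fold change of 12234 genes tested with edgeR was -0.05 with TMM scaling and -1.47 with library totals. All 49 markers of 7 groups of testis cells had counts, with elongating spermatid markers, such as protamine mRNAs, at the highest summed level (203 and 261 CPM with LARP7, 1957 and 2257 with IgG).

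Of the 8 genes, 1 held an annotated small RNA within its RefSeq span. The Olfr575 span, 957 nt, is shorter than its model of 3500 nt, so part of that model was not searched. Med23, on chromosome 10 (24869986 to 24913529, GRCm38.p6, a span of 43544 nt), held 2. The first was an snRNA of 107 nt, LOC115487564, at chr10:24893980-24894086, which begins 23994 nt from the lower end of the span. Its length is that of U6, but its sequence was not checked and it is not identified as U6 here. The second was the microRNA gene Mir6905 at chr10:24910664-24910733. Its RefSeq hairpin is printed because it is the annotated small RNA inside these genes whose sequence could be read. Capitals mark the mature arm in the hairpin and the seed (bases 2 to 8) in the mature RNA.
Mir6905 hairpin: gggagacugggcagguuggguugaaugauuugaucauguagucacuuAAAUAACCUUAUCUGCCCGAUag
mmu-miR-6905-3p: aAAUAACCuuaucugcccgau

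The Mir6905 model had 0 counts in all 4 libraries. A count of 0 allows up to 0.434 and 0.461 CPM in the LARP7 libraries, counting error only, with 3 counts taken as the limit. This bound is for the Mir6905 model alone. Whether reads of the hairpin were counted under Med23 was not tested. The snRNA had no model of its own name in the files, so it has no value here. Exons and introns could not be told apart in the gene table, and the place of either small RNA within the Med23 transcripts is not given here.

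Med23 encodes a subunit of Mediator, the complex that links transcription factors to RNA polymerase II. Its model (ENSMUSG00000019984.16, 10 transcripts) had 1607 and 6308 expected counts in LARP7 replicates 1 and 2, and 156 and 169 in IgG replicates 1 and 2. As CPM these were 232 and 970 against 22.3 and 38.3. That every LARP7 value lay above every IgG value follows from the selection. The LARP7 libraries differed from each other more than the IgG libraries did. The means were 601 ± 522 and 30.3 ± 11.4 CPM (SD, n = 2 each), a 19.8-fold ratio. On the log2 scale edgeR gave 5.59 after TMM scaling and 4.31 when library totals were used.

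Other Mediator subunits moved less. Of 33 listed subunits, 30 were tested; 5 were higher and 3 lower at an edgeR adjusted p under 0.05, with a median log2 fold change of 0.15 (-1.30 with library totals). Over all genes tested 14.5% were higher and 9.69% lower. With library totals 2 subunits were higher and 14 lower, where 3.95% and 47.1% of all genes were. Med23 is 1 of those 5, chosen by this contrast; the others were Med18, Med22, Med25 and Med9, with log2 fold changes of 2.65, 2.58, 1.41 and 1.35. When library totals were used Med22 was still called (1.19), whereas Med18, Med25 and Med9 were not (1.25, 0.04 and -0.06). The subunits lower were Med15, Med24 and Med13 (-2.00, -1.60 and -1.38). In CPM, the lower LARP7 value of Med22 was 1.65 times its higher IgG value, against 6.06 times for Med23.

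Cog6, a subunit of the conserved oligomeric Golgi (COG) complex that tethers vesicles within the Golgi, had the most counts of the 8. Its model (ENSMUSG00000027742.13, chromosome 3, 52982123 to 53017223) had 14138 and 3370 counts with LARP7 and 681 and 458 with IgG. That was 2044 and 518 CPM against 97.4 and 104. Here the LARP7 libraries lay far apart, with replicate 1 the higher, while the IgG libraries nearly coincided. Means were 1281 ± 1079 and 100.6 ± 4.57 CPM (SD, n = 2 each), a 12.7-fold ratio, with log2 fold changes of 5.15 (TMM) and 3.66 (library totals).

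The other 7 COG subunits, a list chosen after the 8 genes were known, were all tested. With TMM none was called in either direction by edgeR, where 14.5% of all genes were higher and 9.69% lower. Their log2 fold changes ran from -1.79 for Cog1 to 0.75 for Cog8. With library totals, where 47.1% of all genes were lower, 6 of them were called lower, and the range was -3.23 for Cog1 to -0.69 for Cog8, the single one not called. In each of them the higher IgG CPM exceeded the lower LARP7 CPM; the ratio of the latter to the former was 0.0681 for Cog1 and 0.393 for Cog8, against 4.99 for Cog6. No annotated gene longer than 400 nt overlapped the Cog6 span in the RefSeq table.

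Dph5 encodes the methyltransferase of diphthamide synthesis, the modification of elongation factor eEF2 that diphtheria toxin attacks. Its model (ENSMUSG00000033554.17) is on chromosome 3 at 115888116 to 115934361. It had 148 and 221 counts with LARP7 and 36.4 and 19.0 with IgG, or 21.4 and 34.0 CPM against 5.21 and 4.31. Dph5 was the nearest to the fold threshold, at 4.11 times, and its replicates were close within each group: 27.7 ± 8.89 and 4.76 ± 0.635 CPM (SD, n = 2 each). Its log2 fold changes were 3.93 (TMM) and 2.53 (library totals). Of 7 diphthamide genes, 4 were tested, with 2 higher and 0 lower in edgeR, where 14.5% and 9.69% of all genes were. The 2 were Dph5 itself, chosen by this contrast, and Dph2, which takes part in the first step (log2 fold change 2.66). With library totals, where 3.95% of all genes were higher and 47.1% lower, Dph5 alone was called and Dph2 had 1.30. Dph2 had 28 and 61 counts against 16 and 14. Dph3 and Dph6 had 0.38 and 1.06 with TMM but -1.07 and -0.38 with library totals, and were called with neither. At its lower end Dph5 shares 15 nt with the lncRNA gene A930005H10Rik, whose model had 1 and 2 counts with LARP7 and 4 and 8 with IgG.

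Fbxo41, an F-box protein gene known mainly from brain, had whole counts throughout. Its model (ENSMUSG00000047013.15, chromosome 6, 85469574 to 85502994) had 120 and 291 counts with LARP7 and 19 and 18 with IgG, with a posterior SD of 0 in all 4 libraries. The posterior SD is RSEM's uncertainty in how reads that map to several models were shared out. In CPM, 17.3 and 44.8 stood against 2.72 and 4.08, with means of 31.05 ± 19.4 and 3.40 ± 0.965 (SD, n = 2 each). Its log2 fold changes were 4.54 (TMM) and 3.20 (library totals).

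Slco1a6, of the organic anion transporter family, and Gjc3, which encodes a gap junction connexin of myelinating glia, are both membrane protein genes. The Slco1a6 model (ENSMUSG00000079262.3, chromosome 6, 142085761 to 142186177) had 158 and 82.1 counts with LARP7 and 1.22 and 4.03 with IgG. That was 22.8 and 12.6 CPM against 0.174 and 0.914. With few IgG counts its ratio was wide: 240 counts against 5, scaled to library totals, gave 40.8 with a 95% exact counting interval of 17.2 to 127. Its relatives Slco1a1, Slco1a4 and Slco1a5 had 0 counts in both LARP7 libraries, and no more than 2 in any IgG library. The pseudogene Gm18159 within its span had 0 counts in both LARP7 libraries too, and 2 and 0 with IgG.

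Gjc3 (ENSMUSG00000056966.7, chromosome 5, 137950992 to 137963098) had 59.4 and 51.8 counts with LARP7 and 12.0 and 0 with IgG. Its LARP7 values were the most alike of the 8, at 8.58 and 7.96 CPM. The IgG values, 1.72 and 0 CPM, differed more, and the mean was 8.27 ± 0.435 against 0.860 ± 1.22 CPM (SD, n = 2 each). Its log2 fold changes were 4.55 (TMM) and 3.08 (library totals).

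Olfr575, an olfactory receptor gene, and Tirap, which encodes an adaptor of Toll-like receptor signalling, had with Gjc3 the lowest sums of counts of the 8. Olfr575 (ENSMUSG00000066269.7, chromosome 7, 102954664 to 102955620) had 53.0 and 92.3 counts against 7.25 and 7.63, or 7.66 and 14.2 CPM against 1.04 and 1.73. The log2 fold changes of Olfr575 were 4.35 (TMM) and 2.97 (library totals). Among 1110 models of olfactory receptor genes, 48 had at least 100 counts, and the median ratio of the lower LARP7 to the higher IgG CPM over these was 0.44. Olfr575 was the single one past 4, where 0.129% of the 6210 long models were. Olfr1352 followed at 3.66, and Olfr1312 (2.92) and Olfr859 (2.41) were among others above 1. Of the long models, 7.05% had both LARP7 values above both IgG values. A ratio under 1 says that the lower LARP7 value did not exceed the higher IgG value, as in most of these 48 models.

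Tirap (ENSMUSG00000032041.15, chromosome 9, 35184391 to 35200291) had 21.1 and 86.5 counts with LARP7 and 2.12 and 0 with IgG. Its 108 counts against 2, scaled to library totals, gave a ratio of 45.9 with a 95% exact counting interval of 12.4 to 384. Both intervals, for Slco1a6 and Tirap, cover counting error only, on counts summed over the libraries of each group. They leave out the spread between replicates. The same counts chose these genes, so the intervals describe them and test nothing. LARP7 replicate 2 was the higher by far, at 13.3 CPM against 3.05. The lncRNA gene Gm39318 lies inside the span (35190087 to 35193905) and is named only, since no model in the files matched it.

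**Figure D1:**
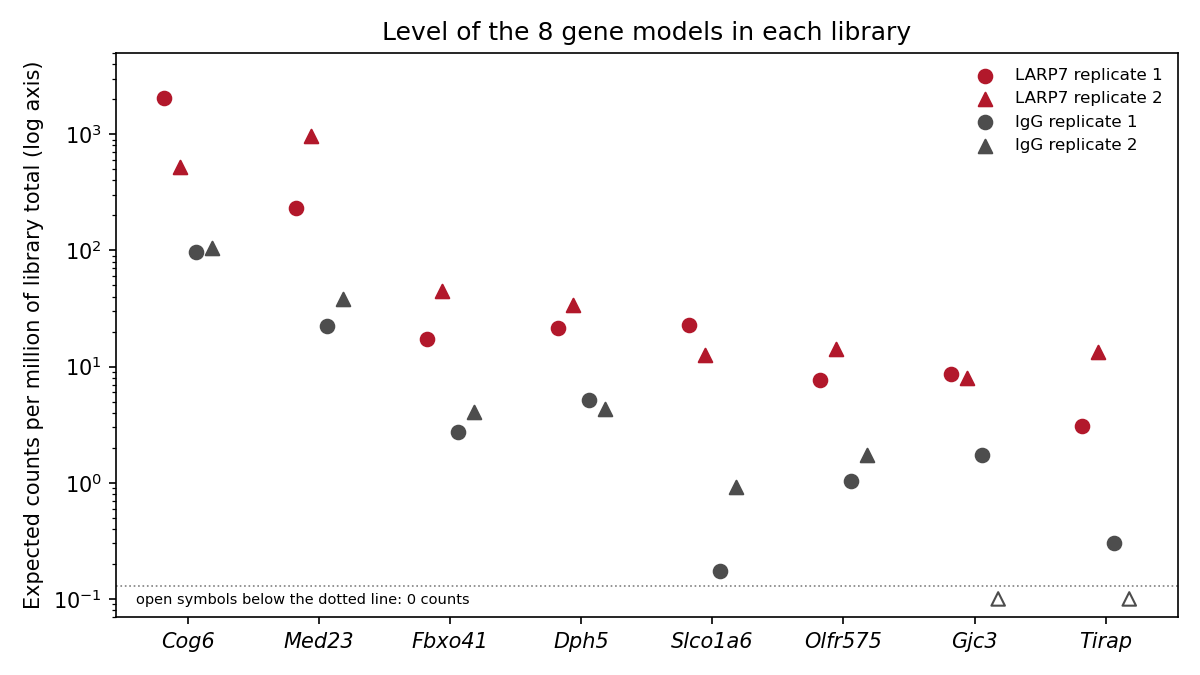
CPM (expected counts over the library total, times 1000000; log axis) for each of the 8 gene models, ordered by total count, in the 2 LARP7 libraries (red) and the 2 IgG libraries (grey); open symbols under the dotted line are 0 counts. Cog6 and Med23 are the highest and have LARP7 libraries far apart in opposite order, and Gjc3 has LARP7 values of 8.58 and 7.96 CPM.

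Among the other long models the ratio ran on without a gap at the threshold. Of the 6210 models, 438 (7.05%) had both LARP7 values above both IgG values. Just inside the threshold lay Dph5 (4.11), Fbxo41 (4.25) and Olfr575 (4.43). Just outside lay C77080 (3.83), Bmf (3.74) and Olfr1352 (3.66). Bmf, a pro-apoptotic BCL2 family gene, had 88 and 152 counts against 8 and 15, so a small change of threshold would take it in. All 8 genes were called higher by edgeR with TMM and with library totals, where 14.5% and 3.95% of all genes tested were higher (9.69% and 47.1% lower); the same contrast chose them, so nothing follows from that count.

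**Figure D2:**
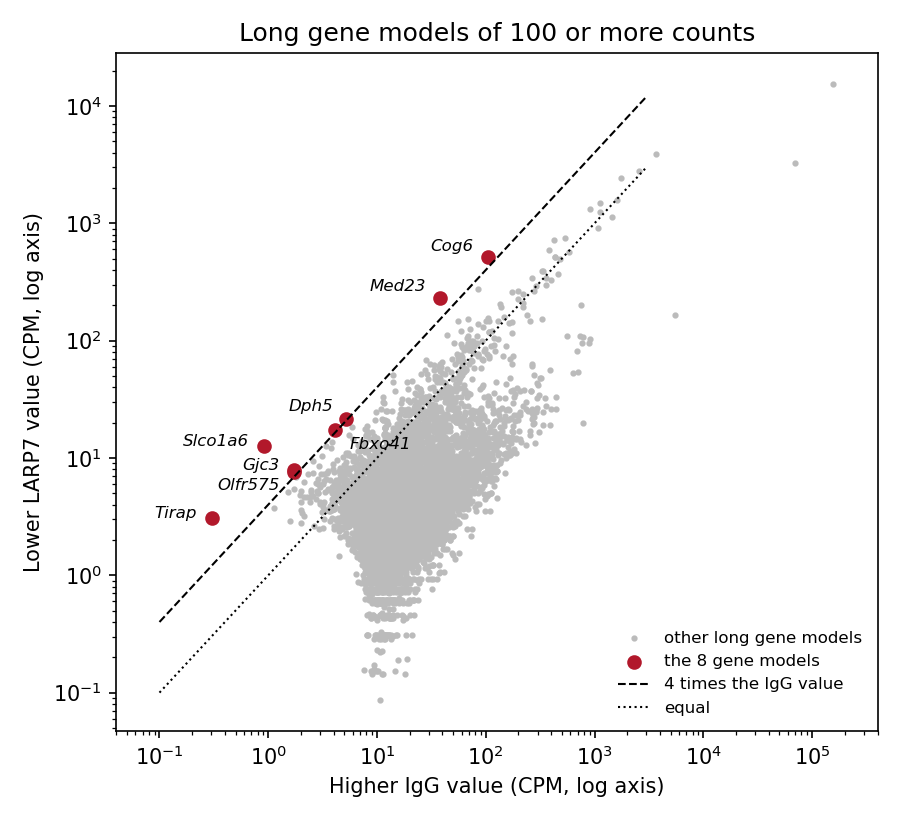
The lower LARP7 CPM against the higher IgG CPM (log axes) for long gene models of 100 or more counts, with the 8 genes in red, the 4-fold line dashed and equality dotted; 9 models with a 0 on an axis are not drawn. The bulk lies under the line of equality, and several of the 8 genes, such as Dph5 and Fbxo41, sit close to the dashed line.

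Another 12 models met the numbers but were left out by name: 10 predicted Gm models, A530064D06Rik and Snhg12. The largest were Gm13667, with 11632 and 9754 counts against 635 and 637, and Gm42885, with 2691 and 4011 against 101 and 123. Snhg12, a host gene of snoRNAs (RNAs that guide chemical modification of other RNAs), had 153 and 149 against 32.4 and 22.3. It contained 4 annotated snoRNAs, Snora16a, Snora44, Snora61 and Snord99. Only 3 of the 12 matched the RefSeq table, so the question of small RNAs inside them could be answered for those alone, and Snhg12 was the single one with any.

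Annotated small RNAs inside the span were found in 1 of 8 genes (12.5%) and in 596 of the 6111 long models matched to RefSeq (9.75%). The median span was 51878 nt with a small RNA and 27282 nt without, and 34261 nt over the 8 genes. Long models with a small RNA inside had medians near that of all long models. In edgeR, 181 models with a snoRNA or related guide RNA inside had 21 higher and 13 lower of 180 tested, with a median log2 fold change of -0.32. For 305 with a microRNA, the calls were 42 higher and 38 lower, and the median -0.28. For 140 with an snRNA the numbers were 18 and 13, median -0.48. The 5515 without any had 795 higher and 806 lower, median -0.35, and all long models -0.34. With library totals the calls turned mostly lower in each class: 2 higher and 120 lower with a snoRNA, 10 and 183 with a microRNA, 4 and 99 with an snRNA, and 137 and 3369 without any.

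A 107-nt snRNA, as in Med23, lay inside 54 long models. By edgeR, 6 of these were higher and 4 lower under TMM scaling, while library totals gave 2 and 36. Over all 6209 long models tested the numbers were 899 and 873 with TMM, and 160 and 3779 with library totals. The TMM median was -0.44, and Med23 alone reached the 4-fold condition. The next by fold change, chosen after its value was seen, was Bckdhb, an enzyme subunit of branched-chain amino acid breakdown, with 125 and 473 counts with LARP7 and 73.4 and 52.3 with IgG (log2 fold change 3.35; 2.03 with library totals). Both Med23 and Bckdhb were higher in LARP7 replicate 2 than in replicate 1. That order alone does not set them apart, since the median ratio of replicate 1 to replicate 2 in CPM over long models was 0.884. Exo1, which followed Bckdhb by fold change, had LARP7 counts close to each other. Whether the 54 models as a set leaned to replicate 2 was not tested. No listed protein-coding host gene met the rule. Of 32 snoRNA hosts tested, 3 were higher (Eif4a2, Eif4a1 and Taf1d) and 1 lower (Eef2), and the median was -0.13. Of 24 microRNA hosts tested, 1 was higher (Ctdsp2) and 3 lower (Zranb2, Dnm2 and R3hdm1), and the median was also -0.13. Among all genes tested 14.5% were higher and 9.69% lower. Eif4a2, a translation initiation helicase gene, came nearest to the rule, with 2170 and 1792 counts against 475 and 372, a ratio of 3.26. With library totals 1 snoRNA host was higher (Eif4a2) and 19 lower, and 1 microRNA host was higher (Ctdsp2) and 14 lower. On that scale 3.95% of all genes were higher and 47.1% lower. The host medians were -1.56 and -1.62, near that of all genes.

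The LARP7 replicates differed in a way that separated the 8 genes from each other. The ratio of replicate 1 to replicate 2 in CPM had a median of 0.884 over 6201 long models, with 5th and 95th percentiles of 0.392 and 2.18. Cog6 lay above that range at 3.94, and 0.855% of long models had a higher ratio. Med23 (0.239) and Tirap (0.229) lay below it, where 0.903% and 0.79% had a lower one. Fbxo41 sat just under its lower end at 0.388, while Dph5, Olfr575, Gjc3 and Slco1a6 were inside, at 0.630, 0.539, 1.08 and 1.80.

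For comparison, 7SK (Rn7sk) had 45756 and 143209 CPM in LARP7 replicates 1 and 2, a ratio of 0.320. The summed snRNA models of U6 length (107 nt, 382 models, chosen by length and not by sequence) had 1638 and 6536 CPM, a ratio of 0.251. Med23 and Tirap were therefore close to the U6-length sum on this ratio, and Cog6 went the other way. The IgG libraries did not repeat the likeness: replicate 2 over replicate 1 was 10.5 for the U6-length sum and 2.54 for 7SK, but 1.72 for Med23. Tirap, whose LARP7 ratio rests on 21.1 and 86.5 counts, had 2.12 and 0 counts in IgG replicates 1 and 2. With 2 libraries in a group these ratios carry no test.

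**Figure D3:**
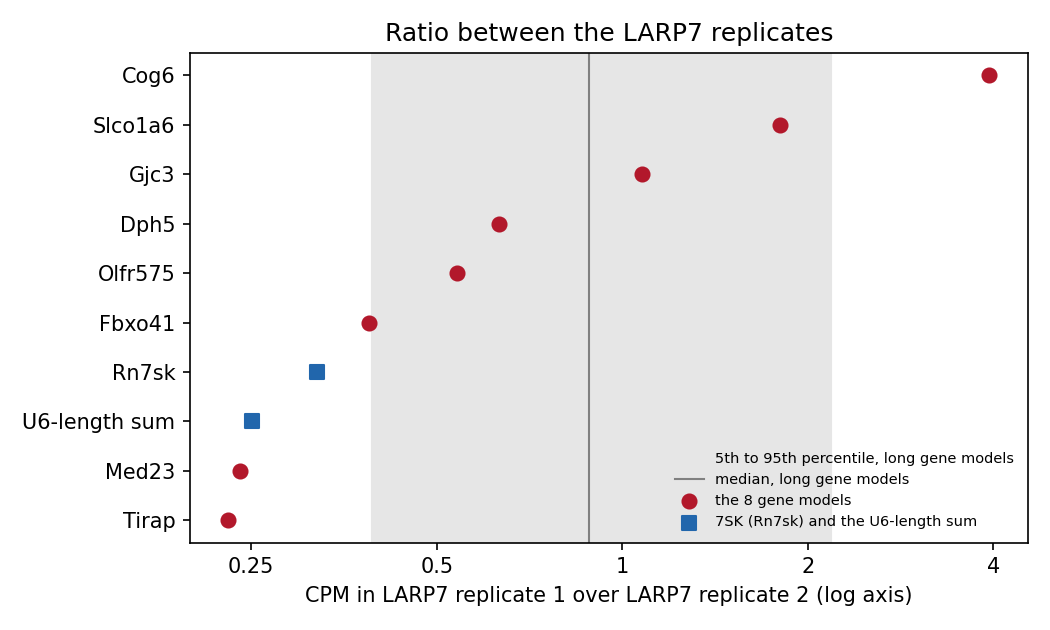
CPM in LARP7 replicate 1 over LARP7 replicate 2 (log axis) for the 8 genes (red) and for 7SK and the summed U6-length snRNA models (blue squares), over the 5th to 95th percentile (grey band) and median (line) of long gene models. Med23 and Tirap fall beside the U6-length sum near 0.25, and Cog6 lies at the other end, at 3.94.

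The LARP7 counts of the 8 genes had low posterior SDs. The ratio of posterior SD to expected count, the higher of both LARP7 libraries, reached 0.5 in 0 of the 8 genes and in 31 of the 6210 long models (0.499%). Over the 8 it ran from 0 (Fbxo41) and 0.00169 (Med23) to 0.108 (Tirap) and 0.118 (Olfr575). Cog6 had 0.0473, Dph5 0.0302, Slco1a6 0.0826 and Gjc3 0.102. The median of the 8 was 0.0649, against 0.00363 over long models, and 6 of the 8 lay above that median. The uncertainty was thus low in absolute terms and higher than in a typical long model.

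With IgG the ratio was larger, on smaller counts. It was 1.09 for Slco1a6 in IgG replicate 1, where the expected count was 1.22, and 0.446 for Olfr575 in IgG replicate 2. Med23 (0.0085 and 0.0201) and Cog6 (0.0390 and 0.0523) stayed low. None of the 8 shared identical counts with another model. Gjc3 and Tirap had posterior SDs of 0.84 and 1.18 in IgG replicate 2, where the expected count was 0 and no ratio can be formed.

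**Figure D4:**
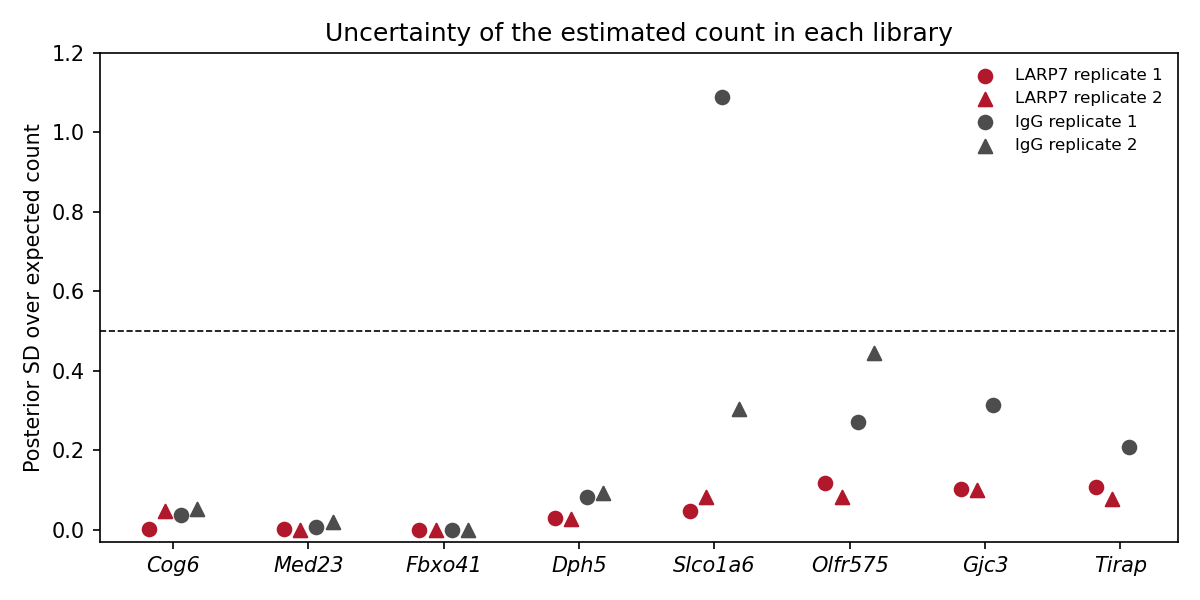
Posterior SD divided by expected count for the 8 genes in each library (red LARP7, grey IgG), with 0.5 dashed; IgG replicate 2 of Gjc3 and Tirap had 0 counts and no ratio. All LARP7 points lie at or below 0.118, and Slco1a6 in IgG replicate 1 is at 1.09.

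A further value of the files that the selection used only as a minimum is the length of each model, which RSEM averages over transcripts by their estimated abundance. A shift in length between libraries therefore shows that the counts were assigned to different transcripts. All 8 genes have several transcripts. Slco1a6 had 459 nt in both LARP7 libraries but 1376 and 564 nt with IgG, a ratio of LARP7 to IgG means of 0.473; 1.13% of 5219 long models with several transcripts had a lower ratio. Its LARP7 counts were thus assigned to short transcripts of the 4 annotated. The IgG lengths rest on 1.22 and 4.03 counts.

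Tirap had 4589 nt in both LARP7 libraries against 3430 nt with IgG on 2.12 counts, and 1871 nt where the count was 0. Gjc3 had 4002 nt in the 3 libraries with counts and 2293 nt in the IgG library with 0. With 0 counts no abundance is left to weight by, and for its 2 transcripts a plain mean of 2293 nt puts the other at 584 nt. Every Gjc3 count was then assigned to the longer transcript. Olfr575 had 3500 nt in all 4 libraries, more than its RefSeq span of 957 nt.

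Med23 and Cog6, with counts above 100 in every library, allow a firmer comparison. Med23 had 2204 and 2194 nt with LARP7 and 2728 and 2305 nt with IgG, so its LARP7 libraries agreed closely and lay below both IgG values. Cog6 had 2724 and 2701 nt with LARP7 against 2377 and 2343 nt, so its groups were apart in the opposite direction. The ratios of the means, 0.874 and 1.15, were within the 5th to 95th percentile (0.675 to 1.56) of 1387 long models. Those models had several transcripts and at least 100 counts in each IgG library, with no minimum for the LARP7 libraries. Dph5 (1578 and 1578 nt with LARP7 against 1650 and 1546 nt) and Fbxo41 (6460 and 6402 against 6534 and 6357 nt) overlapped between groups.

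**Figure D5:**
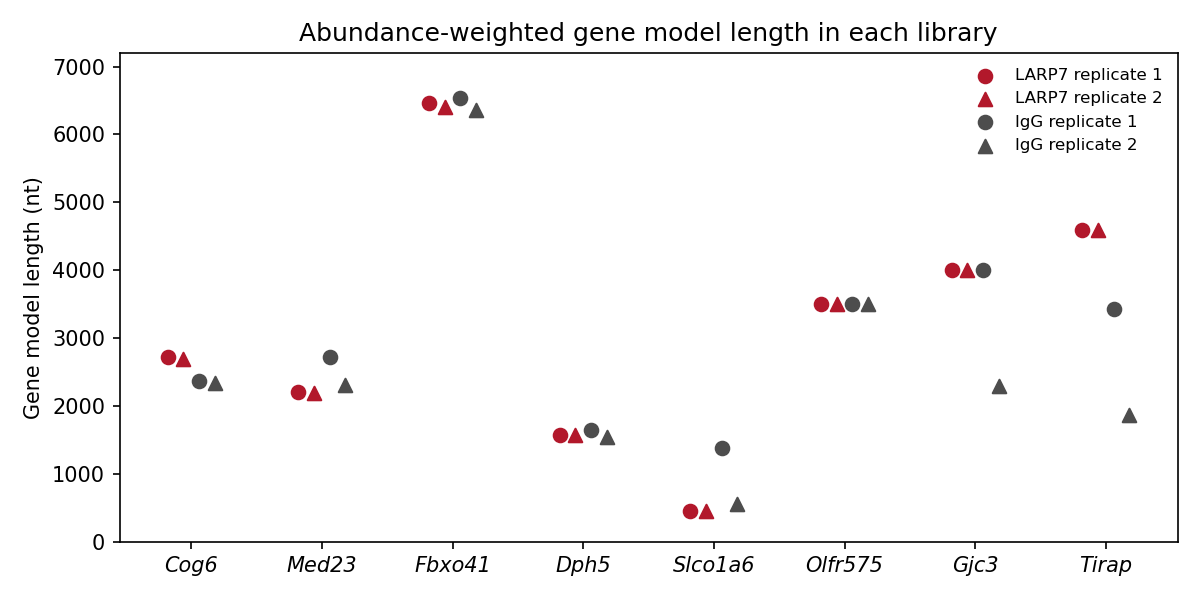
Gene model length in nt, weighted by RSEM over transcripts, for the 8 genes in each library (red LARP7, grey IgG). The LARP7 points of each gene nearly coincide; they lie below both IgG points for Slco1a6 and Med23 and above both for Cog6. The lower IgG points of Gjc3 and Tirap (2293 and 1871 nt) come from a library with 0 counts and are not weighted by abundance.

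Per length, on the authors' TPM scale, the levels were low and the contrast smaller. Cog6 had 18.5 and 8.21 TPM with LARP7 and 3.89 and 2.76 with IgG, and Med23 had 2.61 and 19.0 against 0.77 and 1.04. Slco1a6 had 1.39 and 1.33 against 0.01 and 0.11. Dph5 had 0.34 and 0.94 against 0.30 and 0.18, so its groups came close. The other 4 genes did not exceed 0.30 TPM in any library. Gjc3 had 0.05 and 0.08 with LARP7 against 0.04 and 0 with IgG, so its groups came close too. Olfr575 had 0.05 and 0.17 against 0.03 and 0.03, and Fbxo41 0.07 and 0.30 against 0.04 and 0.04. Tirap had 0.02 and 0.12 against 0.01 and 0. Of the 6210 long models, Slco1a6 was the single one whose LARP7 TPM was in each library at least 4 times the higher IgG value.

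The set depends on single libraries. Without LARP7 replicate 1, 45 long models met the conditions, 5 of the 8 among them. Without LARP7 replicate 2 there were 8, again with 5 of these. Without IgG replicate 1 or IgG replicate 2 there were 44 and 16, all 8 among them. Cog6, Dph5, Fbxo41 and Med23 were found whichever library was left out, whereas Gjc3 and Tirap were lost without either LARP7 library, Olfr575 without LARP7 replicate 2 and Slco1a6 without LARP7 replicate 1. In each of these losses the counts of the remaining 3 libraries summed to under 100.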

How the data were processed

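RNA immunoprecipitation libraries were made from testis, 2 with the LARP7 antibody and 2 with IgG. The submitters' processing notes name RSEM, Bowtie2, cutadapt and the mm10 build; no version was found in the sources used here. The deposited files give, per gene model, expected counts (RSEM's estimated counts) and the posterior mean count. They also give the authors' TPM, which sums to 1000000 per library, and a length. The posterior SD of the count, treated here as a score, was also deposited by the authors. Coordinates and sequences are RefSeq's on GRCm38.p6, which is mm10; 98.4% of the long models matched by symbol or synonym. Small RNAs were those of at most 400 nt wholly inside a span, on either strand.

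Expected counts were rounded and tested with edgeR 4.0.16 in R 4.3.3 (filterByExpr, TMM, robust quasi-likelihood F test, two-sided, Benjamini-Hochberg over 12234 genes, adjusted p under 0.05), after a check on simulated data. DESeq2 1.42.0 was an alternative. The genes and lists were chosen with earlier results of these data known. All 8 genes are named with their values. By rule, names and values were also due to the 3 models nearest outside the threshold; other genes named come from the lists or were chosen after their values were seen. The calls rest on how far these 4 libraries vary, and that spread may be technical.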

Additional observations from a re-analysis of the deposited data

How the results depend on the processing

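The number of long models that met the conditions was 8. It was 184 with TMM scaling in place of library totals, 22 with a fold of 3, 16 with a count minimum of 50 and 16 with the mean of both IgG values, and each of these sets held all 8. It was 5 with a count minimum of 200, 2 with a fold of 8 (Slco1a6 and Tirap) and 1 with TPM (Slco1a6). With the smallest length, a length over 1000 or the posterior mean count it was 8, 7 and 7. Leaving out 1 library gave 8 to 45. The share with a small RNA inside was 12.5% (95% exact interval 0.316% to 52.7%). That interval treats the 8 genes as independent draws, although they are all the models the rule chose, so it tests nothing. The share was 0% with TPM or a fold of 8, where Med23 was lost. It was 6.25% with a count minimum of 50 or the mean of both IgG values, and 7.91% (14 of 177) with TMM. The other settings gave 12.5% to 20%, and leaving out 1 library 9.09% to 20%. The share with a high posterior SD was 0% under all of these except 6.25% (1 of 16) with a count minimum of 50. It was 0% in every setting that left out a library, and with limits of 0.25 or 1.

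Over all genes, edgeR called 1772 higher and 1185 lower. Library totals gave 483 and 5759, DESeq2 1707 and 729. Leaving out 1 library gave 660 to 2138 higher and 197 to 922 lower, the lowest without LARP7 replicate 2. With the replicate number as a block the numbers were 2088 and 1405; same-numbered libraries deviated together only weakly (r = 0.20 across 12234 genes), and 2 numbers do not establish a pairing. A search limited to the same strand was not run, since the tables give no strand for snRNAs or for Med23. Few IgG counts, 2.12 to 12.0 in all for Tirap, Slco1a6 and Gjc3, limit how well their ratios are known. The cause of these changes was not tested.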
